A study of Mus musculus with 28 samples.

Results

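Cytosolic ribosomal protein genes were taken by symbol: names made of Rpl or Rps and a digit, plus Rplp0, Rplp1, Rplp2 and Rpsa, leaving out names with "-ps" (pseudogenes) and the Rps6k kinases. This gave 94 of the 54354 genes in the table. They comprised 46 genes of the large subunit, 31 of the small subunit, 7 paralogues expressed in few tissues or of lesser known role, 9 retrocopies (gene copies made from a processed transcript) and Rps19bp1, which encodes a binding protein of Rps19 and no ribosomal protein.

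The libraries came from Lgr5-GFP mice, whose green fluorescent reporter marks cells that transcribe Lgr5, a receptor of crypt base stem cells. Small intestinal cells with high reporter signal (Lgr5-high) and low signal (Lgr5-low) came from animals given a control diet or a cystine diet (cystine is the oxidised dimer of cysteine), with 7 poly(A)-selected libraries in each of the 4 groups. The extraction protocol in the labels speaks of organoids, while the series' design text speaks of populations taken from the small intestine. The labels name no animals, ages or sexes, so every p-value rests on how far libraries of a group differ, which may be partly technical.

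Ribosomal proteins join ribosomal RNA in the nucleolus to form the small subunit, which reads the messenger RNA, and the large subunit, which forms peptide bonds. Their messenger RNAs are among the most abundant of a growing cell, and most begin with a 5′ terminal oligopyrimidine tract, called TOP, a C followed by further pyrimidines, through which mTORC1 and LARP1 regulate their translation. Stem and progenitor cells of the intestinal crypt divide rapidly and make many ribosomes, whereas maturing villus cells make fewer.

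RefSeq start sites (GRCm38.p6) were on hand for 69 of the 94 members. A TOP tract, defined as C at the annotated start and at least 4 pyrimidines after it, stood at a listed start of 15 of these 69 genes (21.7%), against 3.01% of 27025 symbols in the same table. The search read the gene's own strand and depends on the exact base chosen as the start. The following windows, 10 bases before and 20 from the start on the gene's strand, show the tract in capitals in Rps6, the substrate of the S6 kinases, and in 4 further members:

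Rps6, chr4:86857348-86857377, minus strand: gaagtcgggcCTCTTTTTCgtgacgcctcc
Rpl28, chr7:4792955-4792984, plus strand: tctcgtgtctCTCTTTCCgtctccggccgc
Rps18, chr17:33955646-33955675, minus strand: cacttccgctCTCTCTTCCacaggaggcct
Rpl35, chr2:39005112-39005141, minus strand: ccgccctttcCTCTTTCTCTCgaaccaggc
Rpl38, chr11:114668570-114668599, plus strand: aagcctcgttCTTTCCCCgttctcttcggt

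The tracts were 8 to 11 bases long. In the window of 250 bases before and 50 after the start, searched on both strands, CCGGAA occurred in 52.2% of the 69 members and 16.7% of all symbols. AAGATGGC occurred in 8.70% and 3.19%, and TATAAA in 11.6% and 15.7%. These are matches of letters and not measured sites.

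Sequence also decides how far a member can be measured, because the deposited counts were divided among like transcripts by a model. Rps27, a zinc finger protein of the small subunit (chromosome 3, 90212522 to 90213651, GRCm38), and its retrocopy Rps27rt (chromosome 9, 114982366 to 114982739) were identical over all 252 bases of coding sequence. Their first transcribed bases, shown because a result below turns on this pair, shared a run of 29 bases, in capitals:

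Rps27, chr3:90213619-90213648, minus strand: cCTTTCCGGCGGTGACGACCTCCCTACGAG
Rps27rt, chr9:114982710-114982739, minus strand: CTTTCCGGCGGTGACGACCTCCCTACGAGa

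Counted position by position from each annotated start, the 2 genes had the same base at 66 of 250 upstream positions (26.4%). The annotated starts are out of step with each other, as the printed runs show. This count therefore cannot tell how alike the upstream sequences are. Over all libraries Rps27 held 603608 counts and Rps27rt 60109, so that Rps27 had 90.9% of the pair, between 82.6% and 96.7% in single libraries. In other pairs the copy held more. Rpl10, the large subunit protein that completes the peptidyl transferase centre (chromosome X, 74270812 to 74273135), held 2353 counts, while Rpl10-ps3 on chromosome 9, identical over the 642 coding bases, held 243313. Thus 0.958% of that pair lay in the gene's own row. Rpl9 held 97600 counts against 294059 in Rpl9-ps6 (24.9% in the gene's row, 99.8% coding identity), and Rps2 held 128028 against 150538 in Rps2-ps10 (46.0%, 99.4% identity). Values of Rpl10, Rpl9, Rps2, Rpl36a, Rpl36, Rpl37, Rpl37rt, Rps26, Rps27 and Rps27rt are therefore uncertain. Smaller parts lay in copies of Rps23, Rpl21 and Rpl38, which held 94.3%, 96.7% and 97.3% of their pairs. Such copies are not members and were left out unless stated.

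Of the 94 members, 87 passed the filter on low counts. The other 7 were Rpl10l, Rpl39l and Rps12l1, listed at 0 in all 28 libraries, and Rpl3l, Rpl6l, Rps3a2 and Rps3a3. Rpl3l, the striated muscle paralogue of Rpl3, had 3 counts in all. Total counts per library lay between 2.75 and 21.5 M (M, 1e6 counts), with medians of 15.4 and 5.32 M in Lgr5-high cells on control and cystine diet, and 7.30 and 14.8 M in Lgr5-low cells. The common biological coefficient of variation was 0.629. As a check of the sort, all 5 stem cell markers had a positive log2 fold change for Lgr5-high over Lgr5-low cells on both diets. In edgeR (adjusted p under 0.05) 5 were called higher on control and 4 on cystine diet, where 0.784% and 1.1% of all tested genes were. All 5 goblet cell markers were called lower on both diets, where 1.02% and 1.54% of all tested genes were. Lgr5 itself measured 21.5, 33.2 and 45.1 CPM (lowest, median and highest library; CPM is the usual depth-scaled count, here after TMM scaling) in Lgr5-high cells on control diet and 0.214, 4.09 and 10.04 CPM in Lgr5-low cells.

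Ribosomal protein genes took a large part of every library. In Lgr5-high cells their share of all counts was 11.3% ± 1.48 (SD, n = 7) on control diet and 11.1% ± 2.05 on cystine diet. In Lgr5-low cells it was 9.20% ± 2.38 on control diet and 10.01% ± 1.82 on cystine diet. The ranges overlapped, with 9.77% to 13.4% in Lgr5-high control, 8.65% to 14.5% in Lgr5-high cystine, 6.89% to 14.1% in Lgr5-low control and 6.71% to 11.7% in Lgr5-low cystine libraries. Lgr5-low control replicate 3 held the 14.1%, and the next library of its group held 9.67%. In bulk samples a lower share of cells that make ribosomes and less of this RNA per cell cannot be told apart.

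**Figure D1:**
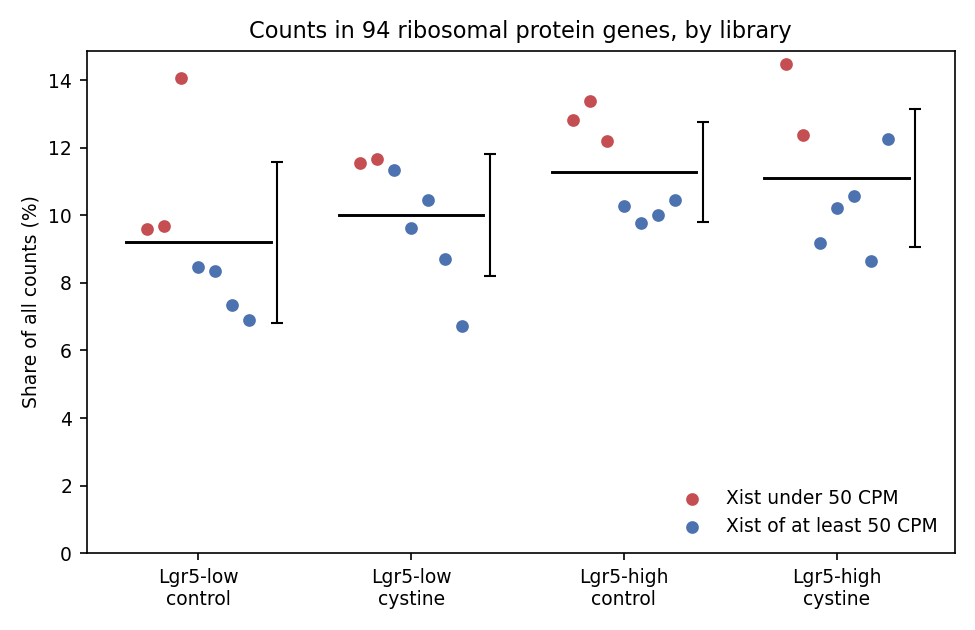
Share of a library's counts in the 94 genes (y axis, percent) for the 4 groups of 7 libraries, with 1 point per library in order of replicate number, the group mean as a line and the SD as a bar. Red points are libraries with Xist under 50 CPM and blue points the others; in each group every red point lies above every blue one.

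Per transcript length, the member with the highest level was Rpl41, a very short protein of the large subunit, at 13492 CPM per kilobase of annotated transcript. It was followed by the small subunit genes Rps18 (9567), Rps14 (8240), Rps27 (5991) and Rps28 (5040), all in CPM per kilobase. The lowest tested levels were those of Rps4l (26.1), Rps19bp1 (22.6), Rpl10 (8.84), Rps23rg1 (3.17) and Rpl32l (2.54 CPM per kilobase), of which Rpl10 shares its reads with the copy named above. The median over tested members was 1099 CPM per kilobase. Members varied less than most genes, with a median within-group SD of 0.38 on the log2 CPM scale against 0.82 over all 12495 tested genes. This comparison was not matched for level. The median level of tested members was 991 CPM, and the part of level in their smaller spread was not tested. The steadiest were Rpl4 (0.17), Rpl12 (0.20) and Rpl5 (0.20), all of the large subunit. The most variable with at least 10 CPM were Rps19bp1 (0.67), the X-linked small subunit gene Rps4x (0.63) and Rps27rt (0.61).

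On control diet the question was which members separate Lgr5-high from Lgr5-low cells. Members lay slightly higher in Lgr5-high cells without any single one passing the test. Of 87 tested members 76 had a positive log2 fold change, and the median was 0.26, against -0.01 over all tested genes. In edgeR's quasi-likelihood test with adjusted p under 0.05 as the threshold, 0 members were called higher, where 0.784% of all genes were, and 0 lower, where 1.02% were. An unadjusted p under 0.05 was seen in 17 of 87 members and in 1607 of all 12495 tested genes. Large subunit genes had a median of 0.26 (41 of 46 positive) and small subunit genes also 0.26 (28 of 31 positive).

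Rpl23, a protein on the face of the large subunit that meets the small one (chromosome 11, 97777527 to 97782437), had the lowest p of these. It measured 1886, 2023 and 2456 CPM (lowest, median and highest library) in Lgr5-high cells and 1224, 1438 and 2091 CPM in Lgr5-low cells on control diet. All 7 Lgr5-high libraries exceeded the Lgr5-low median, and 3 exceeded every Lgr5-low library. The log2 fold change was 0.46 ± 0.16 (SE) with an adjusted p of 0.129. Rpl4, which lines the peptide tunnel, measured 1882, 2028 and 2261 against 1393, 1516 and 1940 CPM. In that gene 6 of 7 Lgr5-high libraries exceeded the highest Lgr5-low library (0.40 ± 0.14, adjusted p = 0.144). The lowest p among negative values belonged to Rps2 (-0.30 ± 0.16, adjusted p = 0.450), whose reads are shared with a copy, and Rpl8 (-0.24 ± 0.14, adjusted p = 0.517).

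These values depended on few libraries. Without Lgr5-low control replicate 3, 16 of 88 members were called higher (background 1.86%) and the median was 0.46. Limma-voom with sample quality weights called 30 members (background 3.26%), DESeq2 called 1, Rpl4 (background 1.42%), and a replicate block within diet called 13 (background 1.68%). No member had all 7 libraries of one population above or below all 7 of the other, which 0.472% and 0.488% of all tested genes had.

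On cystine diet, in other libraries, Rpl23 and Rpl36 were higher in Lgr5-high cells. Again 76 of 87 members were positive, with a median of 0.33 against -0.04 over all tested genes. The 2 called genes were 2.30% of the members, where 1.1% of all genes were called higher. No member was called lower (0 by edgeR, background 1.54%). Unadjusted p lay under 0.05 in 24 of 87 members and in 1940 of all 12495 tested genes. The median was 0.31 for large subunit genes (39 of 46 positive) and 0.34 for small subunit genes (28 of 31 positive).

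Rpl23 measured 2105, 2801 and 3413 CPM in Lgr5-high cystine libraries and 1276, 1531 and 2125 CPM in Lgr5-low cystine libraries. The groups overlapped only through Lgr5-low replicate 1, at 2125 CPM, where the next Lgr5-low library stood at 1600. The means were 2706 ± 540 and 1559 ± 280 CPM (SD, n = 7), and the log2 fold change was 0.80 ± 0.16 (SE, adjusted p = 0.00280). Rpl36, a protein of the large subunit surface (chromosome 17, 56613416 to 56614243), measured 347, 585 and 716 CPM against 261, 325 and 467 CPM. Its groups overlapped more, and its means were 556 ± 143 and 339 ± 75.9 CPM (0.72 ± 0.20, adjusted p = 0.0394). Part of the reads of Rpl36 may belong to Rpl36-ps12, as 75.4% of that pair lay in the gene's row.

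The call of Rpl23 was kept without each of the 28 libraries in turn (adjusted p between 0.00150 and 0.0188) and lost among the 2 against 2 libraries with low Xist described below (0.135). The call of Rpl36 was lost in 18 of these 28 fits, with adjusted p between 0.0527 and 0.132. The libraries left out in them were all 7 of Lgr5-high control, Lgr5-high cystine replicates 1, 2, 5, 6 and 7, Lgr5-low control replicate 2 and Lgr5-low cystine replicates 3 to 7. By other methods the count of members higher on cystine diet was 15 with limma-voom (background 3.54%), 5 with DESeq2 (2.41%), 12 with a replicate block within diet (1.62%) and 4 without Lgr5-low control replicate 3 (1.24%). It was 4 with a replicate block (1.33%), 5 without libraries under 5 M counts (0.946%) and 1 without the low-count filter (0.353%). No member separated the groups without overlap (0.56% of all tested genes lay above and 0.736% below). Further members with low p that did not pass were Rpl7 (0.51 ± 0.15, adjusted p = 0.0620) and Rpl4 (0.44 ± 0.14, 0.0727). After them came Rpl9 (0.64 ± 0.21, 0.0978) and Rpl3, which helps to form the peptidyl transferase centre (0.59 ± 0.20, 0.101). On the negative side Rpl8 stood at -0.27 ± 0.14 (adjusted p = 0.376) and Rps15, a protein of the small subunit head, at -0.31 ± 0.20 (0.508), neither of which passed. Macrophage markers moved with this comparison: all 8 were tested and all 8 had a positive log2 fold change. By edgeR 6 of them were called higher in Lgr5-high cystine libraries (background 1.1%). The summed level of these markers was 6.18 to 401 CPM there and 18.6 to 76.6 CPM in Lgr5-low cystine libraries. Their part in the values of the ribosomal protein genes was not tested.

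**Figure D2:**
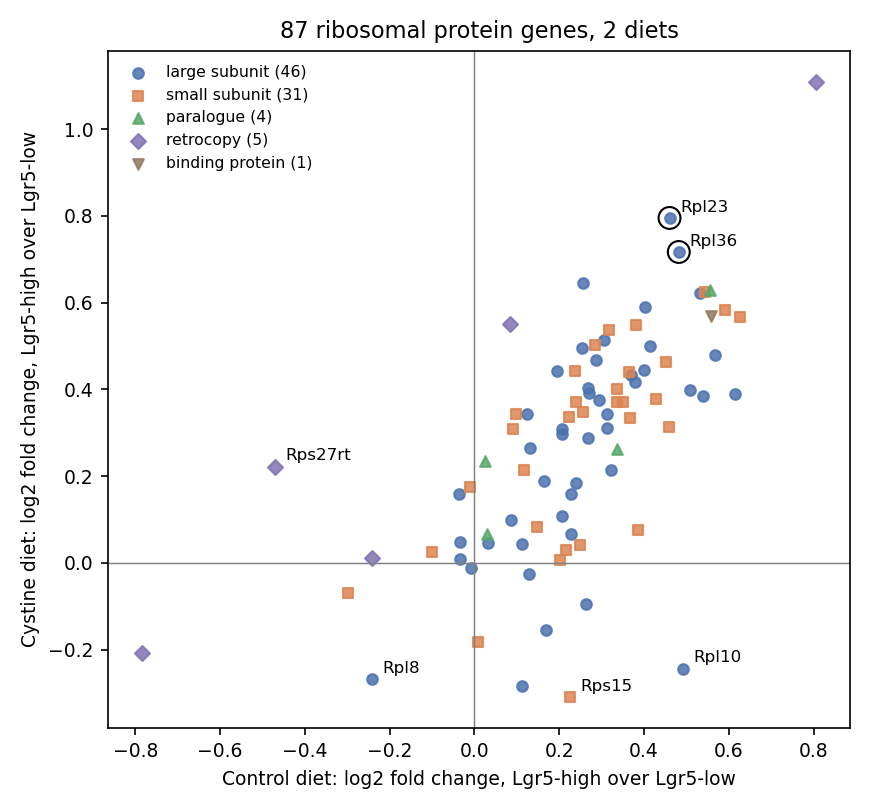
Log2 fold change of Lgr5-high over Lgr5-low cells for the 87 tested members on control diet (x axis) and on cystine diet (y axis), with 1 point per gene and symbols for kinds of member. Most points lie above zero on both axes; the ringed genes Rpl23 and Rpl36 were called on cystine diet, and no gene was called on control diet.

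Members with known separate roles are given next, none of which was called. The stalk proteins, which recruit translation factors, had control diet values of 0.26 ± 0.19 (Rplp0), -0.04 ± 0.21 (Rplp1) and 0.09 ± 0.15 (Rplp2). On cystine diet they were -0.10 ± 0.19, 0.16 ± 0.21 and 0.10 ± 0.15. Rpl5 and Rpl11, which carry 5S ribosomal RNA and can bind Mdm2, stood at 0.16 ± 0.15 and 0.23 ± 0.18 on control diet. On cystine diet they stood at 0.19 ± 0.15 and 0.07 ± 0.18. Rps6 gave 0.28 ± 0.22 and 0.50 ± 0.22 on control and cystine diet (adjusted p = 0.671 and 0.254). Rps19, whose human counterpart is mutated in Diamond-Blackfan anaemia, gave 0.45 ± 0.24 and 0.46 ± 0.24 (adjusted p = 0.437 and 0.352). Rpsa, also known as the laminin receptor, stood near no change at 0.01 ± 0.15 and -0.18 ± 0.15.

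Rpl13a, Rpl38, Rpl10a, Rps3, Rps14 and Rps27a completed the members chosen by role. Rpl13a, known as a subunit of a translation silencing complex, gave 0.03 ± 0.16 on control and 0.05 ± 0.16 on cystine diet. Rpl38, needed for translation of Hox messages in the embryo, gave 0.24 ± 0.22 and 0.18 ± 0.22. For Rpl10a the values were 0.21 ± 0.16 and 0.11 ± 0.16. Rps14 gave 0.39 ± 0.25 and 0.07 ± 0.25. Rps3, which lies at the entry of the messenger RNA channel, gave 0.34 ± 0.17 and 0.40 ± 0.17 (adjusted p = 0.415 and 0.230), and Rps27a, made as a fusion with ubiquitin, 0.24 ± 0.21 and 0.44 ± 0.21.

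Paralogues were compared next to their parent genes. Rpl22l1, which can take the place of Rpl22 in the large subunit, measured 303 ± 185 CPM and Rpl22 358 ± 136 CPM in Lgr5-low control libraries. In Lgr5-high control libraries the levels were 445 ± 104 and 445 ± 88.9 CPM. The log2 fold changes between populations were 0.55 ± 0.25 for Rpl22l1 and 0.31 ± 0.19 for Rpl22 on control diet, and 0.63 ± 0.25 and 0.34 ± 0.19 on cystine diet, with adjusted p between 0.183 and 0.544. Rps27l, a target of p53, stood at 0.03 ± 0.20 and 0.07 ± 0.20, where Rps27 stood at 0.59 ± 0.27 and 0.58 ± 0.27 (adjusted p = 0.325 and 0.275). Differences between the genes of a pair were not tested.

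The other pairs gave the following values on control and cystine diet. Rpl36a gave 0.53 ± 0.25 and 0.62 ± 0.25, and its paralogue Rpl36al 0.03 ± 0.19 and 0.24 ± 0.19. Rpl7l1 gave 0.34 ± 0.15 and 0.26 ± 0.15, beside Rpl7 with 0.30 ± 0.15 and the value on cystine diet given above. Rps4l, 79.8% identical to Rps4x over the coding sequence, gave -0.24 ± 0.26 and 0.01 ± 0.26, and Rps4x 0.22 ± 0.35 and 0.34 ± 0.35. Rpl39 gave 0.61 ± 0.26 and 0.39 ± 0.26, and its testis paralogue Rpl39l was listed at 0. Rps27rt gave -0.47 ± 0.33 and 0.22 ± 0.33, and Rpl10 0.49 ± 0.35 and -0.24 ± 0.35. Rpl3, whose paralogue Rpl3l was all but absent, gave 0.40 ± 0.20 on control diet, and Rpl9 0.26 ± 0.21. Rpl26 gave 0.27 ± 0.22 and 0.40 ± 0.22. None of these passed.

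Cystine was then set against control diet within Lgr5-high cells. No member was called in edgeR (0 higher, background 0.168%, and 0 lower, background 0). Unadjusted p lay under 0.05 in 3 of 87 members and in 535 of all 12495 tested genes. Positive values were seen in 68 of 87 members, with a median of 0.12 against -0.02 over all tested genes. Rps27rt had the largest difference. It measured 98.9, 149 and 192 CPM in control libraries and 237, 316 and 391 CPM in cystine libraries, so that all 7 cystine libraries lay above all 7 control libraries. It was the only member with this separation, which 0.152% of all tested genes showed, and 0 members lay below without overlap (0.064%).

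For Rps27rt the log2 fold change was 1.07 ± 0.33 (SE; means 303 ± 60.0 against 144 ± 40.5 CPM), with an unadjusted p of 0.00316 and an adjusted p of 0.372 in edgeR. It passed in 3 other settings: when the fit held no libraries but those of both diets in Lgr5-high cells (adjusted p = 0.00222), with limma-voom (0.0407) and with a term for the Xist class described below (0.0419). These settings called 1, 1 and 2 members higher, where 0.322%, 0.24% and 0.304% of all genes tested in them were. Over all settings its adjusted p ran from 0.00222 to 0.839. Macrophage markers were also higher in these cystine libraries (5 of 8 called, sums of 6.18 to 401 against 16.9 to 35.8 CPM), and their part in this difference was not tested. The parent gene Rps27 measured 1861, 2239 and 3136 CPM on control and 1332, 2464 and 3831 CPM on cystine diet, a log2 fold change of 0.04 ± 0.27. The share of the pair assigned to Rps27rt was 5.66% ± 1.61 on control and 11.4% ± 2.53 on cystine diet in Lgr5-high cells, and 11.2% ± 3.95 and 12.7% ± 3.60 in Lgr5-low cells. Because the coding sequences are identical, bases outside them are what can separate these genes, and the part of read assignment in this difference was not tested.

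Other members on the diet axis did not pass. Rpl23 stood at 0.36 ± 0.15 (SE, adjusted p = 0.994), with means of 2706 ± 540 on cystine and 2103 ± 218 CPM on control diet. On the negative side, Rps15 measured 685, 765 and 1075 CPM on control diet and 357, 552 and 1064 CPM on cystine diet. Of the 7 cystine libraries 1, replicate 1, exceeded the control median (-0.48 ± 0.20, adjusted p = 0.957). Rpl28 measured 634 ± 87.02 on control and 509 ± 142 CPM on cystine diet (-0.32 ± 0.19, unadjusted p = 0.103).

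**Figure D3:**
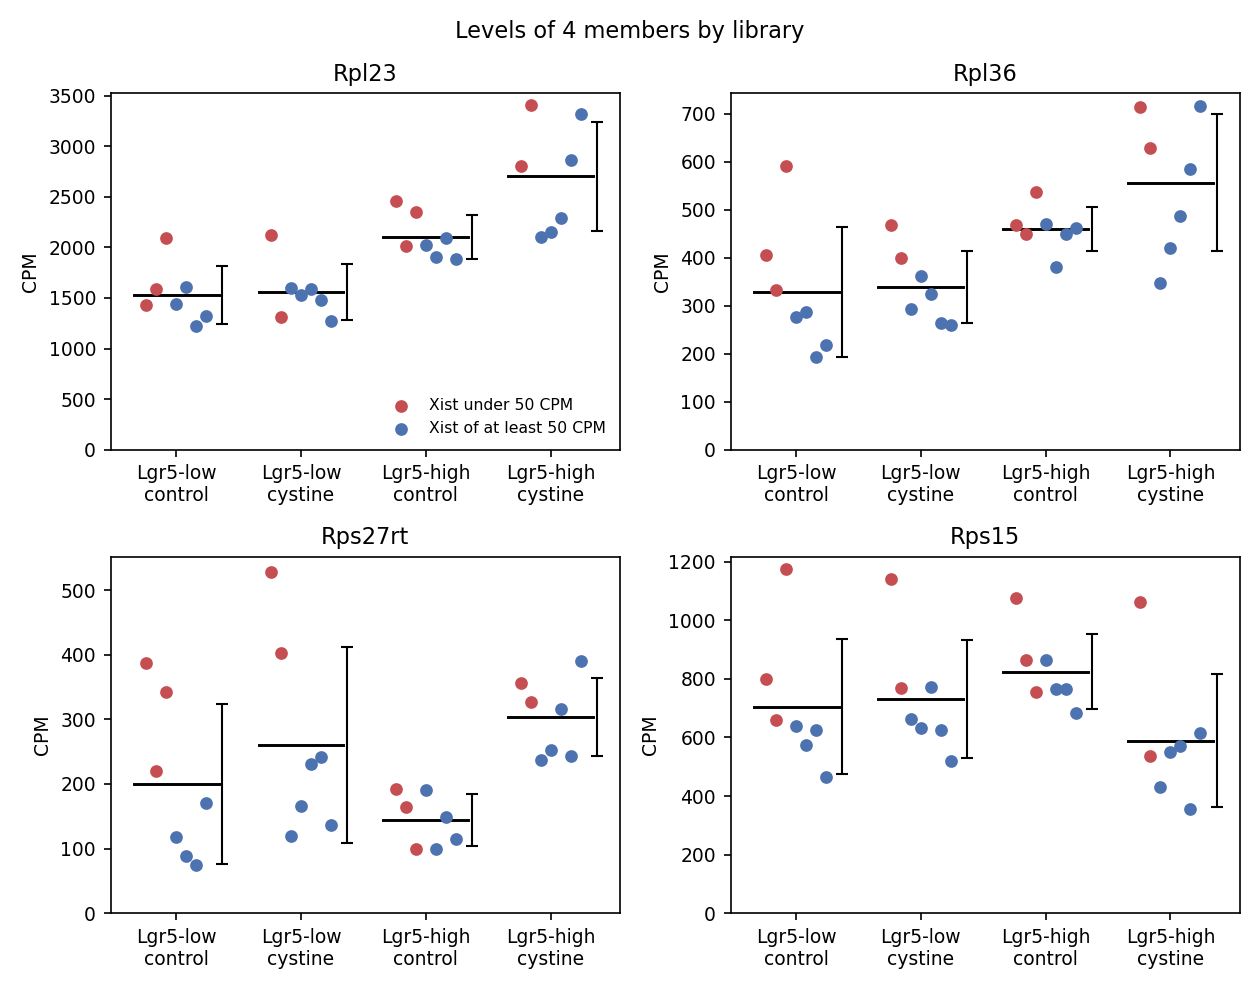
Levels of Rpl23, Rpl36, Rps27rt and Rps15 (y axes, CPM) in the 4 groups, with 1 point per library, the mean as a line and the SD as a bar; red points are libraries with Xist under 50 CPM. Rpl23 and Rpl36 are higher in Lgr5-high cystine than Lgr5-low cystine libraries, and Rps27rt in Lgr5-high cells is higher in every cystine than in every control library.

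In Lgr5-low cells no difference between the diets exceeded the spread of the libraries. By edgeR 0 members were called in either direction (background 0 higher and 0 lower). Unadjusted p lay under 0.05 in 0 members and in 371 of all 12495 tested genes. The median was 0.06 with 68 of 87 positive, and no member separated the diets without overlap (0.04% of all tested genes above, 0.024% below). The members of lowest p were Rpl7l1 (165 ± 16.8 on cystine against 143 ± 39.0 CPM on control diet, 0.21 ± 0.15) and Rpl39 (0.31 ± 0.26). On the negative side they were Rps4l (-0.23 ± 0.26) and Rpl18 (-0.12 ± 0.17). The difference between the diet effects in the populations was called in 0 members by edgeR (background 0 higher and 0 lower). Unadjusted p lay under 0.05 in 0 members and in 415 of all 12495 tested genes. The median of this difference over members was 0.04. The medians of both comparisons turned with the libraries used: without those under 5 M counts they were -0.09 in Lgr5-low cells and 0.39 for the difference, and without Lgr5-low control replicate 3 they were 0.25 and -0.15. The extremes by p were Rps15 (-0.54 ± 0.29), Rpl10 (-0.74 ± 0.49), Rpl23 (0.34 ± 0.22) and Rpl37rt (0.47 ± 0.31), with 95% intervals that include 0.

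More members were called between libraries of the same groups than between diets or populations in the fit of all libraries. Libraries fell into classes by Xist, the RNA of the inactive X chromosome: 10 had 0 to 8.90 CPM and 18 had 132 to 330 CPM. The low class was made up of control replicates 1 to 3 and cystine replicates 1 and 2 in both populations, so it was balanced between the populations and cannot be told apart from anything else shared by those replicate numbers. The division was made after the data had been seen and uses Xist alone. Ribosomal protein genes took 9.58% to 14.5% of counts (median 12.3%) in the low class and 6.71% to 12.3% (median 9.70%) in the other. In every group all low-class libraries had a larger share than all others: 12.2% to 13.4% against 9.77% to 10.5% in Lgr5-high control, and 9.58% to 14.1% against 6.89% to 8.47% in Lgr5-low control. The closest values were in Lgr5-high cystine, with 12.4% and 14.5% against 8.65% to 12.3%, and Lgr5-low cystine, with 11.5% and 11.7% against 6.71% to 11.4%.

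With a term for the Xist class beside the 4 groups, 66 of 87 members were higher in the low class in edgeR, where 8.03% of all tested genes were, and 0 were lower, where 9.04% were. The median log2 difference was 0.54 for members and -0.16 for all tested genes, and 81 members were positive. By subunit, 36 of 46 large subunit genes (median 0.50) and 25 of 31 small subunit genes (median 0.60) were called, as were 3 of 4 tested paralogues and 2 of 5 tested retrocopies.

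Rps14, a protein of the small subunit platform, had the lowest p. It averaged 6759 CPM in the low class and 3897 CPM in the other (0.84 ± 0.10, adjusted p = 3.98e-07). Rps27 averaged 2836 and 1640 CPM (0.87 ± 0.12, adjusted p = 2.65e-06), and in each of the 4 groups its low-class libraries lay above all others. Between them in p stood Rpl37rt (0.74 ± 0.09), Rpl23a (0.78 ± 0.10), Rpl37 (0.68 ± 0.09), Rpl35 (0.68 ± 0.09) and Rps19 (0.77 ± 0.10). The genes that stood apart from this were Rpl5 (986 against 1089 CPM, -0.15 ± 0.09), Rpl13a (-0.08 ± 0.10), Rpsa (0.04 ± 0.10), Rpl12 (0.07 ± 0.09) and Rps12 (0.08 ± 0.11), with adjusted p between 0.247 and 0.838. Rps2 (-0.24 ± 0.10) and Rpl8 (-0.19 ± 0.09) were negative and did not pass (adjusted p = 0.0955 and 0.143). The X-linked genes Rps4x (0.13 ± 0.28) and Rpl10 (0.10 ± 0.27) did not pass, while X-linked Rpl39 (0.84 ± 0.12) and Rpl36a (0.76 ± 0.12) were higher in the low class.

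**Figure D4:**
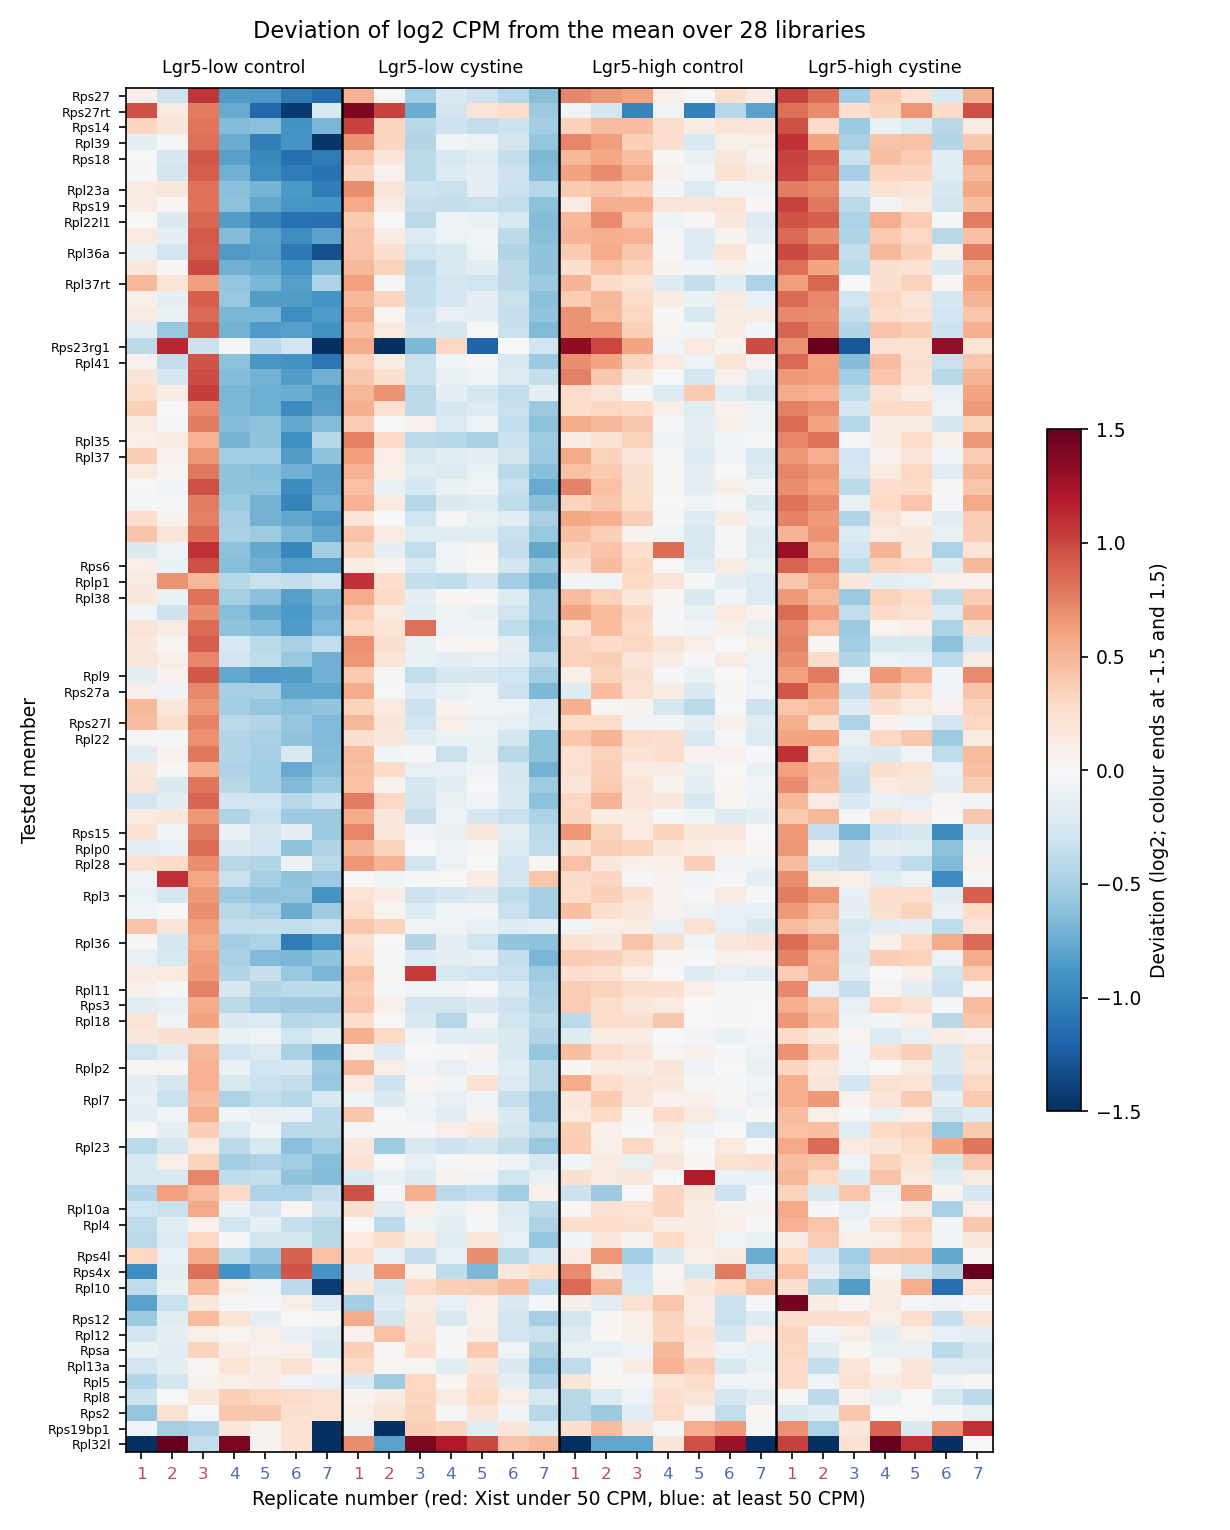
Deviation of log2 CPM from the gene's mean over the 28 libraries for the 87 tested members (rows, ordered by their difference between the Xist classes) in each library (columns, by group and replicate number), with a selection of genes labelled. Red numbers mark libraries with Xist under 50 CPM; in Lgr5-low control replicate 3, 81 of 87 members lay above their group median, and in Lgr5-high cystine replicate 1, 83 of 87 did.

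**Figure D5:**
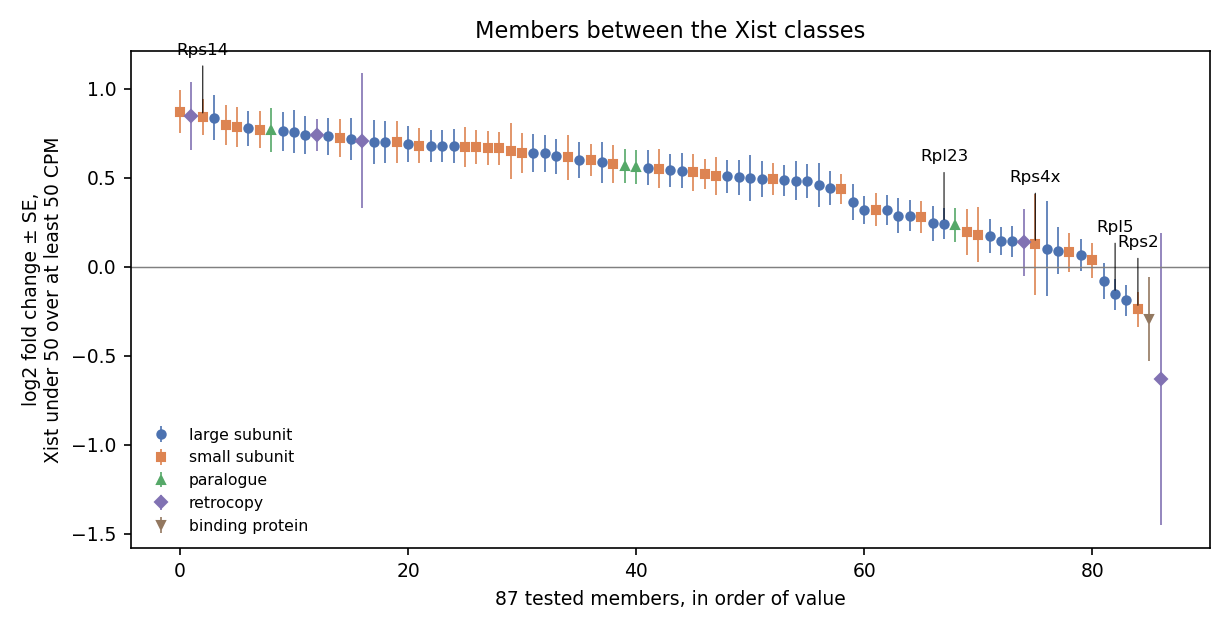
Log2 fold change of libraries with Xist under 50 CPM over the others, with the SE as a bar (y axis), for the 87 tested members in order of value (x axis), from the fit with a mean per group. Values run from 0.87 for Rps27 to -0.63 for the retrocopy Rpl32l, which did not pass, and 81 of 87 genes lie above zero.

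Depth and the mitochondrial share also differed between these classes. Total counts had medians of 6.46 M in the low class (3.39 to 14.9 M) and 14.5 M in the other (2.75 to 21.5 M), and mitochondrially encoded transcripts took a median of 19.7% and 16.3% of counts. Their part in the difference was not tested. Within the libraries with Xist of at least 50 CPM, 46 of 88 tested members were higher in Lgr5-high cells on control diet (4 against 4 libraries, median 0.50, background 2.99%). On cystine diet 16 of 88 were (5 against 5, median 0.32, background 1.93%). Within the libraries with Xist under 50 CPM, 0 of 86 were called in edgeR on either diet (background 0.0418% and 0.234%), with medians of 0.03 (3 against 3) and 0.30 (2 against 2).

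A test of the difference between these population effects, also added after the data had been seen, called 2 of 87 members on control diet (background 0.472% higher and 0.12% lower) and 0 on cystine diet (background 0.032% higher and 0.072% lower; by edgeR 4 members had an unadjusted p under 0.05). Rps14 was called (0.93 ± 0.23, adjusted p = 0.0470), with a larger population difference in the libraries with Xist of at least 50 CPM. On control diet 48 of 87 members had an unadjusted p under 0.05, and the median of this difference was 0.57 against -0.06 over all tested genes. How many of all tested genes had such a p was not counted on either diet. In Rps14 the Lgr5-high control libraries held 5863 to 6453 CPM in the low class and 4986 to 5533 CPM in the other. Lgr5-low control libraries held 5248 to 8089 CPM in the low class and 2478 to 3003 CPM in the other, so the classes did not overlap in either population. With the Xist term in the fit of all libraries, 16 members were called higher in Lgr5-high cells on control diet (background 1.7%) and 17 on cystine diet (background 2.35%).

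Genes that build ribosomes were followed from lists. Of 40 tested ribosome biogenesis genes, the control diet comparison called 3 higher in Lgr5-high cells (background 0.784%) and 0 lower (background 1.02%). They were the pseudouridine synthase Dkc1 (0.77 ± 0.19, adjusted p = 0.0227), the box C/D protein Nop56 (0.63 ± 0.16, 0.0242) and the nucleolar chaperone Npm1 (0.61 ± 0.16, 0.0325). On cystine diet 2 were (background 1.1%), Npm1 (0.72 ± 0.16, adjusted p = 0.00733) and the large subunit assembly factor Wdr12 (0.68 ± 0.16, 0.0117). The medians of this list were 0.25 and 0.01. Npm1 measured 743, 787 and 1080 CPM in Lgr5-high and 444, 531 and 741 CPM in Lgr5-low control libraries, which leaves no overlap.

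Among 18 tested Myc family and RNA polymerase I genes, Myc, a transcription factor that drives ribosome synthesis, was higher on control diet (31.9 ± 10.3 against 13.7 ± 4.64 CPM, 1.22 ± 0.25, adjusted p = 0.00533). On cystine diet 0 of 18 passed in edgeR (background 1.1% higher and 1.54% lower). Unadjusted p lay under 0.05 in 4 of the 18 and in 1940 of all 12495 tested genes. Translation factors and further TOP messages (24 tested) had 0 calls between the populations on either diet. Genes of mTOR and S6 kinase signalling (20 tested) also had 0. The backgrounds on control and cystine diet were 0.784% and 1.1% higher, and 1.02% and 1.54% lower. Unadjusted p lay under 0.05 in 6 and 7 of the 24 and in 0 and 2 of the 20. Of all 12495 tested genes, 1607 and 1940 had such a p. The medians of the TOP list were 0.20 on both diets.

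Mitochondrial ribosomal protein genes, which serve the separate ribosome inside mitochondria, were listed beside the cytosolic set. Of 78 tested, 0 were higher on control and cystine diet (background 0.784% and 1.1%) and 1 was lower on each (background 1.02% and 1.54%). The medians were -0.05 and 0.04. Unadjusted p lay under 0.05 in 8 and 13 of the 78, and in 1607 and 1940 of all 12495 tested genes. These counts were near the shares over all genes. Neither set was tested against the other. Between diets, 0 genes of any of these lists were called by edgeR in either population. The background was 0.168% higher in Lgr5-high cells and 0 otherwise. An unadjusted p under 0.05 was seen for 7 list genes in Lgr5-high and 5 in Lgr5-low cells. Of all 12495 tested genes, 535 and 371 had such a p. The lowest adjusted p was that of the elongation factor Eef2 in Lgr5-high cells (-0.62, adjusted p = 0.0991).

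The genes outside the set whose log2 CPM followed the mean of the members most closely over the 28 libraries included copies of members. Pearson r was 0.98 for Rpl9-ps6, 0.97 for the predicted gene Gm11808 and 0.96 for Snu13, an RNA-binding protein of box C/D particles. It was 0.95 for Gm2000 and Rps26-ps1, and 0.94 for Gm42845, the prefoldin subunit Pfdn5 and Btf3, a subunit of the nascent polypeptide-associated complex. These correlations share libraries, depth and, for copies, reads with the members.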

How the data were processed

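Estimated counts for 28 libraries were deposited in 1 table, made with Salmon 1.3.0 on mm10 per the submitters' processing notes, and already in whole numbers. Rows without a symbol (1243, at most 0.0111% of a library) and totals of 2.75 to 21.5 M set the precision. All libraries entered 1 edgeR 4.0.16 quasi-likelihood fit (robust, TMM scaling, a mean per group) over the 12495 genes kept by filterByExpr, with Benjamini-Hochberg adjustment over all of them and a threshold of 0.05. The contrasts were population within each diet, diet within each population, and their difference. SE is the log2 fold change divided by the root of F. The procedure was tested on simulated data. Coordinates and lengths come from GENCODE (GRCm38), matched for 94.7% of genes, and promoters from RefSeq. Named genes were those past the threshold (at most 8 of lowest p a direction, filled to 2), the extremes of level and spread, paralogue pairs, members by role, and the 8 nearest other genes. Some results are not reported here. Members and lists were chosen with earlier results of these data known. Alternatives were DESeq2 1.42.0, limma 3.58.1 voom with sample quality weights, other scaling and filters, replicate blocks, only the groups compared, and fewer libraries. Those using Xist were added after seeing the data. The replicate number was not used as a pairing in the main fit, since the labels state none. Same-numbered libraries correlated above 0.1 in at most 4 of 7 pairs. Between populations the same-numbered library was the closest match in 4 of 7 cases on control and 3 of 7 on cystine diet. Between diets it was in 2 of 7 cases in Lgr5-high and 3 of 7 in Lgr5-low cells. Whether the numbers pair libraries is thus not settled.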

Additional observations from a re-analysis of the deposited data

Results flagged for a closer look

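Among 60 sets of 7 libraries, 6 had a library far from the others of its group. For a single set chance gives about 1 in 20. The sets reuse the same 28 libraries and are not independent, so the number flagged cannot be judged against that rate. Lgr5-low control replicate 3 held 14.1% of its counts in ribosomal protein genes, and the next library 9.67%. Lgr5-low cystine replicate 1 was far above its group in 3 genes: Rpl23 at 2125 CPM (next 1600), Rpl37rt at 650 CPM (next 421) and Rps15 at 1140 CPM (next 772). Lgr5-high cystine replicate 1 had 1064 CPM of Rps15, where the next library had 615. Lgr5-high cystine replicate 3 had 526 CPM of Rps2, where the next had 397.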

How the results depend on the processing

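The number of ribosomal protein genes called higher in Lgr5-high cells depended on the method. On control diet it was 0, and it became 1 with DESeq2, 30 with limma-voom, 16 with a term for the Xist class, 46 in libraries with Xist of at least 50 CPM, and 0 to 16 when 1 library was left out, the 16 without Lgr5-low control replicate 3. On cystine diet it was 2, and it became 5 with DESeq2, 15 with limma-voom, 1 without the low-count filter, 5 without libraries under 5 M counts, 17 with the Xist term, 16 with Xist of at least 50 CPM, 0 with Xist under 50 CPM, and 1 to 4 when 1 library was left out. With a replicate block the counts were 0 and 4, and with a replicate block within diet 13 and 12. Same-numbered libraries of the populations correlated between -0.08 and 0.24. They were the closest match in 4 of 7 cases on control and 3 of 7 on cystine diet. The Xist class went with the replicate number in both populations. Whether the numbers pair libraries is not settled, so it is open which of these counts applies. Of the genes of lowest p recomputed in these blocks, Rpl23 on control diet was called anew (adjusted p = 0.04997); which further members were called was not listed. For cystine against control in Lgr5-high cells the count was 0, and it became 1 with limma-voom, 1 with only the groups compared and 2 with the Xist term.

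When 1 library was left out, the median log2 fold change ran from 0.18 to 0.46 on control diet and from 0.21 to 0.40 on cystine diet between populations. Between diets it ran from 0.00 to 0.19 in Lgr5-high and from -0.03 to 0.25 in Lgr5-low cells, and for the difference of diet effects from -0.15 to 0.15, with 0.39 without libraries under 5 M. The share of counts without mitochondrially encoded genes was 14.0% in Lgr5-high control, 14.0% in Lgr5-high cystine and 11.9% in Lgr5-low cystine libraries. With those genes counted, the share in libraries with Xist under 50 CPM was 12.8% in Lgr5-high control and 13.4% in Lgr5-high cystine. Rps15 turned to 0.10 (population, cystine diet) and 0.064 (difference of diet effects) without libraries under 5 M. Rpl18 in Lgr5-low cells turned to 0.030 with Xist of at least 50 CPM and 0.020 without Lgr5-low control replicate 3 (-0.19 to 0.020 over the libraries left out). The cause of these changes was not tested. Small differences between populations or diets may have been missed at this spread.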
